A study of Mus musculus with 12 samples.

Results

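The comparison described here is IL-17A + IL-36γ against IL-36γ, that is, what the addition of IL-17A did to the transcripts of ear skin that was treated with IL-36γ as well. Its members were the 3 libraries of the IL-17A + IL-36γ group and the 3 libraries of the IL-36γ group, 6 of the 12 libraries of the series, chosen by their labels alone. All mice were 8-week-old female C57BL/6 animals whose ear pinnae were treated intradermally with 5 µl of PBS that held either no cytokine, 1 µg of IL-17A, 1 µg of IL-36γ or 1 µg of each. Treatment was given on consecutive days, per the study's methods, and tissue was taken after 4 days; the number of injections is not given in the sources used here. The IL-17A + IL-36γ group thus received the most cytokine in all, and no group received a double amount of IL-36γ. Each group had 5 mice, of which 3 were sequenced. The tissue was a homogenized part of the ear, an organ that holds epidermis, dermis, muscle, fat, nerve and cartilage. In such bulk samples fewer cells of a type and less RNA per cell cannot be told apart.

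IL-17A is the signature cytokine of Th17 cells and of a subset of γδ T cells. It binds a receptor made of IL-17RA and IL-17RC and signals through the adaptor Act1 to NF-κB and C/EBP transcription factors and to the stabilization of short-lived mRNAs, with keratinocytes and fibroblasts as its main targets in skin. IL-36γ, a cytokine of the IL-1 family released by keratinocytes, signals through IL-1RL2 and IL-1RAcP to NF-κB and MAP kinases, and both cytokines are raised in psoriatic plaques.

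Gene-level reads numbered between 28770645 and 33211507 in the IL-36γ libraries and between 26570621 and 30140778 in the IL-17A + IL-36γ libraries. Levels are given as CPM, gene counts scaled to library sizes adjusted by TMM factors, and differences as log2(IL-17A + IL-36γ / IL-36γ) with the standard error (SE). Adjusted p-values are Benjamini-Hochberg values over all 19408 genes tested, from the edgeR quasi-likelihood test fitted to all 12 libraries unless another fit is named. To be called raised or lowered, a gene had to differ by more than 1 on the log2 scale and to have an adjusted p below 0.05.

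No gene was called raised (0 of 19408, 0%) and 2 were called lowered (0.0103%), Chp2 and Lmx1a. A further pair, Slc6a2 and Myoc, passed the adjusted p at a smaller fold, which made 4 genes at any fold (0.0206%), all of them lower in the IL-17A + IL-36γ group. At an unadjusted p below 0.05 there were 1086 genes with a higher value (5.6%) and 1852 with a lower value (9.54%). The 3 IL-17A + IL-36γ libraries all lay above the 3 IL-36γ libraries for 1810 genes (9.33%) and all lay below them for 2186 genes (11.3%). These last 4 shares are the background against which the gene groups below are read.

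The number of calls depended on the fit. A DESeq2 likelihood ratio test on the 6 libraries called 50 genes raised (0.307%) and 91 lowered (0.559%) of 16280 tested. An edgeR fit to the 6 libraries with the replicate number as a block, the blocked fit in what follows, called 44 raised (0.239%) and 150 lowered (0.814%) of 18422. This fit was added after seeing the data, and no source says what the replicate number marks. With the same block on all 12 libraries edgeR called 0 and 0, with 1376 higher and 2010 lower genes at an unadjusted p below 0.05, and on the 6 libraries without the block it also called 0 and 0, with 1236 and 1825. The DESeq2 and the blocked fit shared 28 raised genes, which were 56% of the DESeq2 calls and 63.6% of the blocked calls, and 66 lowered genes, which were 72.5% and 44% of them. Without replicate 2 of IL-36γ the 12-library fit called 13 raised and 49 lowered, and without replicate 3 of IL-17A + IL-36γ it called 3 and 36, while 9 of the other 10 omissions gave 0 raised and 0 lowered and the last, without replicate 1 of PBS, gave 0 and 2. Replicate 2 of IL-36γ and replicate 3 of IL-17A + IL-36γ were the 2 libraries nearest to each other among the 6, at a distance of 44.3 in log2 CPM over all genes tested, below every distance within a group (54.8 to 63.7).

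**Figure D1:**
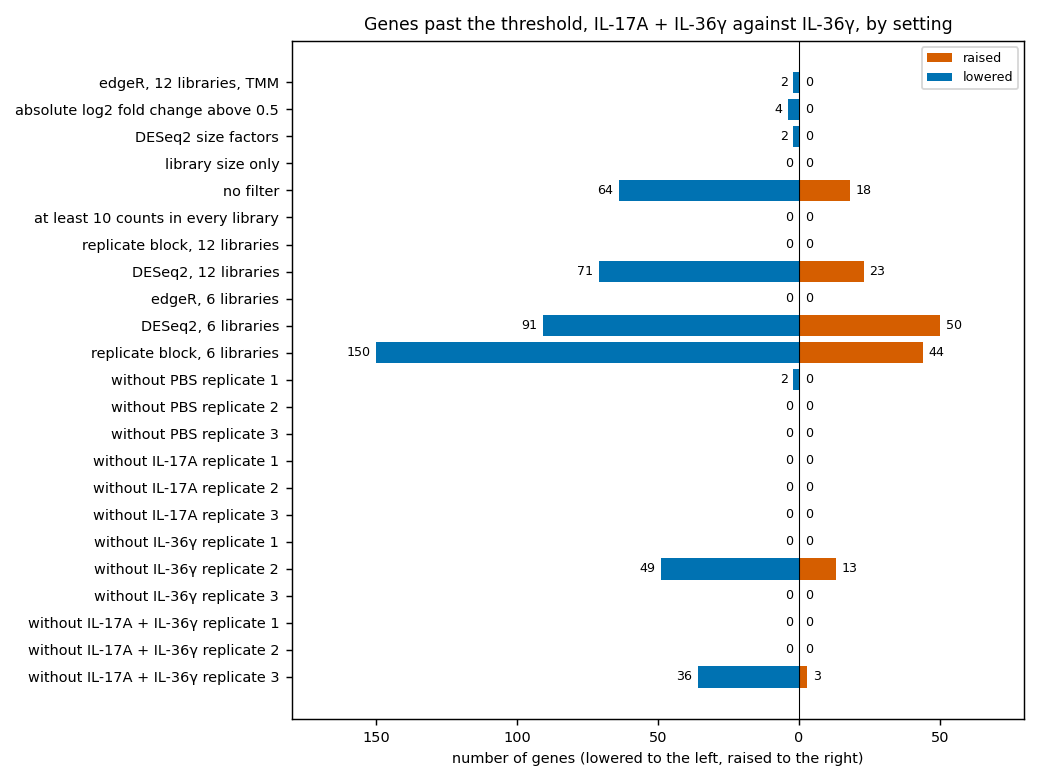
Number of genes called raised (bars to the right) and lowered (bars to the left) in IL-17A + IL-36γ against IL-36γ, one row for each way of fitting or each library left out. The 12-library edgeR fit gave 0 raised and 2 lowered; DESeq2 on the 6 libraries gave 50 and 91, and the blocked fit on the 6 libraries gave 44 and 150.

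Promoter sequence is shown for the genes past the adjusted p and for Lcn2 and Slc7a11, the core IL-17A-related genes with the smallest p. The 250 bases before the RefSeq transcription start were read 5′ to 3′ on the gene's strand (GRCm38.p6, the build of the mm10 alignment); 3 of the 4 genes past the adjusted p matched an entry, and Slc6a2 did not. Capitals mark a match to a motif of a factor downstream of IL-17A on either strand, with no overlap between matches: C/EBP (TTNNGCAA), AP-1 (TGANTCA) or NF-κB (by its 10-base consensus). The segments are chr2:32387740-32387989 minus strand for Lcn2, chr3:50443614-50443863 minus strand for Slc7a11, chr7:122219246-122219495 plus strand for Chp2, chr1:162638900-162639149 plus strand for Myoc and chr1:167689308-167689557 plus strand for Lmx1a.
Lcn2: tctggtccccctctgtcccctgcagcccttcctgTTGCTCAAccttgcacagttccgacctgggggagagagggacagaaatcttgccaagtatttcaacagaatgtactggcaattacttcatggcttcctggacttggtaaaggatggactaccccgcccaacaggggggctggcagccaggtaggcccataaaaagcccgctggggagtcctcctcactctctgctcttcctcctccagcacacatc
Slc7a11: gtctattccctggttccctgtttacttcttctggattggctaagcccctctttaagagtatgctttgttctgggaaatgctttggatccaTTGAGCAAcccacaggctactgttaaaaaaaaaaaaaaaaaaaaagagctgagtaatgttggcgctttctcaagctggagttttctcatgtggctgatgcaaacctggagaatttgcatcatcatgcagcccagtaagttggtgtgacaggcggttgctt
Chp2: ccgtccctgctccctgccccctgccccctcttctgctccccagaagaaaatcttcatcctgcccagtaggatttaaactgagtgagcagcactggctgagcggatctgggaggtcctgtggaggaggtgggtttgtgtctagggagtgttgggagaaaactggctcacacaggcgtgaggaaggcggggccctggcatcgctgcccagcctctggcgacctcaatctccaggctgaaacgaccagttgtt
Myoc: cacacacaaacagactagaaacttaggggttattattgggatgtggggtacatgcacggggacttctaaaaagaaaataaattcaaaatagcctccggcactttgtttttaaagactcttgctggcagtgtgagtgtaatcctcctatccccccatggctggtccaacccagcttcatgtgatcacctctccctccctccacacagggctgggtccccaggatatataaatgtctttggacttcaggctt
Lmx1a: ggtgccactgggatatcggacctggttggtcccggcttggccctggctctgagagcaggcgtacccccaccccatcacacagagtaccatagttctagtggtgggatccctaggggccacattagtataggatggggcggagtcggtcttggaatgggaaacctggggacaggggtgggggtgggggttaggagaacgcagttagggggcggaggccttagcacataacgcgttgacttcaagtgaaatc
Lcn2 and Slc7a11 each held 1 C/EBP match, starting 216 and 160 bases before the start, and no other motif matched in the 5 segments. Of the 32851 RefSeq promoters of this length that were searched, 9.56% held the C/EBP, 6.75% the AP-1 and 3.9% the NF-κB motif.

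Chp2 encodes a calcineurin B-like calcium-binding protein that regulates sodium/proton exchange. It stood at 22.1, 15.8 and 22.1 CPM in the IL-36γ libraries and at 8.04, 8.63 and 11.4 CPM in the IL-17A + IL-36γ libraries. The groups did not overlap, and Chp2 fell by 1.09 ± 0.15 (SE) on the log2 scale with an adjusted p of 0.0473. It was also called lowered by DESeq2 on the 6 libraries (adjusted p 1.35e-08) and by the blocked fit on the 6 libraries (adjusted p 0.019), but not with the block on 12 libraries (0.0649), library size alone (0.0826), at least 10 counts in every library (0.0534) or edgeR on the 6 libraries (0.124). It stayed past the threshold in 3 of 12 fits that left out 1 library, with adjusted p-values from 0.007 to 0.361. Calm5, a calmodulin-like calcium-binding gene of differentiating epidermis, showed a similar pattern at 92.3, 72.6 and 76.2 CPM against 36.2, 39.8 and 49.2 CPM without passing the test (log2 −0.95 ± 0.14, adjusted p 0.0687).

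Lmx1a, a LIM-homeobox transcription factor gene, was close to the lower limit of what was counted. Its levels were 0.699, 0.822 and 0.964 CPM with IL-36γ and 0.234, 0.256 and 0.268 CPM with both cytokines. It fell by 1.69 ± 0.23 on the log2 scale (edgeR quasi-likelihood test, adjusted p 0.0473), a call that the blocked fit on the 6 libraries also made (adjusted p 0.0355). The call was lost with the block on 12 libraries (0.0649), library size alone (0.0853), edgeR on the 6 libraries (0.124) and in 10 of 12 fits that left out 1 library, and DESeq2 on the 6 libraries gave no adjusted p. Each IL-17A + IL-36γ library held fewer than 10 counts of Lmx1a. The gene thus passed the main count filter through the other groups, and a filter of at least 10 counts in every library left it untested. The PBS and IL-17A groups had mean levels of 0.815 and 0.915 CPM, so the combination alone had a mean below 0.8 CPM.

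Slc6a2 encodes the noradrenaline transporter of sympathetic nerve endings. It measured 23.4, 18.8 and 26 CPM in IL-36γ and 9.83, 11.7 and 13.4 CPM in IL-17A + IL-36γ, a difference of −0.96 ± 0.13 (edgeR adjusted p 0.0473). Myoc, which encodes the secreted glycoprotein myocilin, measured 402, 364 and 384 CPM against 237, 237 and 255 CPM, a difference of −0.66 ± 0.09 at the same adjusted p. Both genes fell without overlap of the groups, below the fold needed for a call. Their means in PBS were 35.5 and 693 CPM, and both were also lower in IL-36γ than in PBS (−0.64 and −0.85 on the log2 scale, adjusted p 0.00287 and 8.88e-05), a comparison that shares the IL-36γ libraries.

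**Figure D2:**
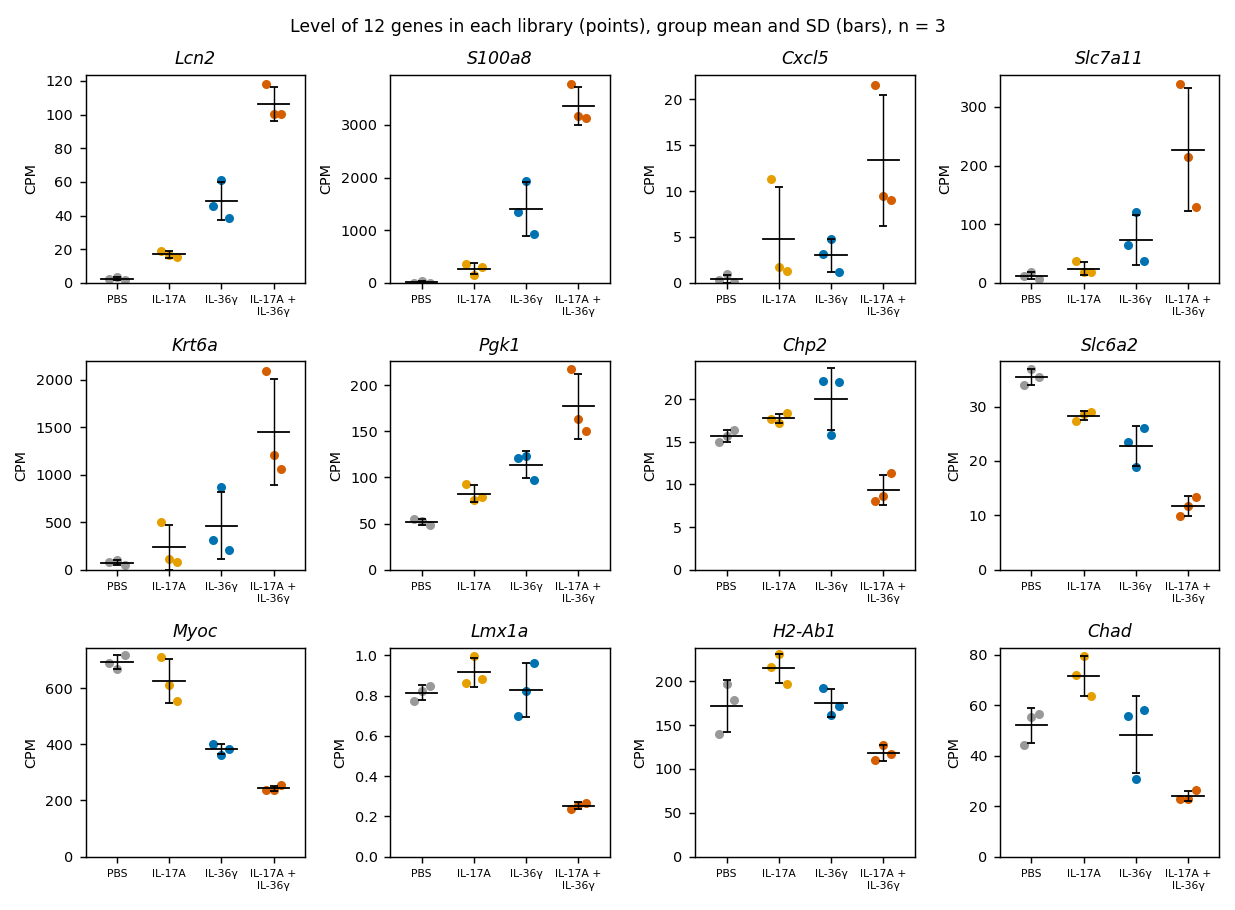
CPM of 12 genes in each of the 12 libraries (points) with the group mean (line) and SD (bars, cut at 0), n = 3 per group, on axes that start at 0. The top row and Krt6a and Pgk1 have higher means in IL-17A + IL-36γ than in IL-36γ, with replicate 2 the highest IL-36γ library for Lcn2, S100a8, Cxcl5, Slc7a11 and Krt6a; for Chp2, Slc6a2, Myoc, Lmx1a, H2-Ab1 and Chad all 3 IL-17A + IL-36γ libraries lie below the 3 IL-36γ libraries.

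Among genes with a higher value, Lcn2 had the smallest p. It encodes lipocalin 2, an antimicrobial protein that sequesters bacterial siderophores and is a classical IL-17A target of epithelia and a product of neutrophils. Its levels were 45.8, 61.2 and 38.7 CPM in IL-36γ and 118, 100 and 100 CPM in IL-17A + IL-36γ, with no overlap. The difference of 1.13 ± 0.19 missed the threshold in the 12-library edgeR fit (adjusted p 0.0927) and passed it in DESeq2 on the 6 libraries (adjusted p 3.44e-05) and in the blocked fit (adjusted p 0.019).

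**Figure D3:**
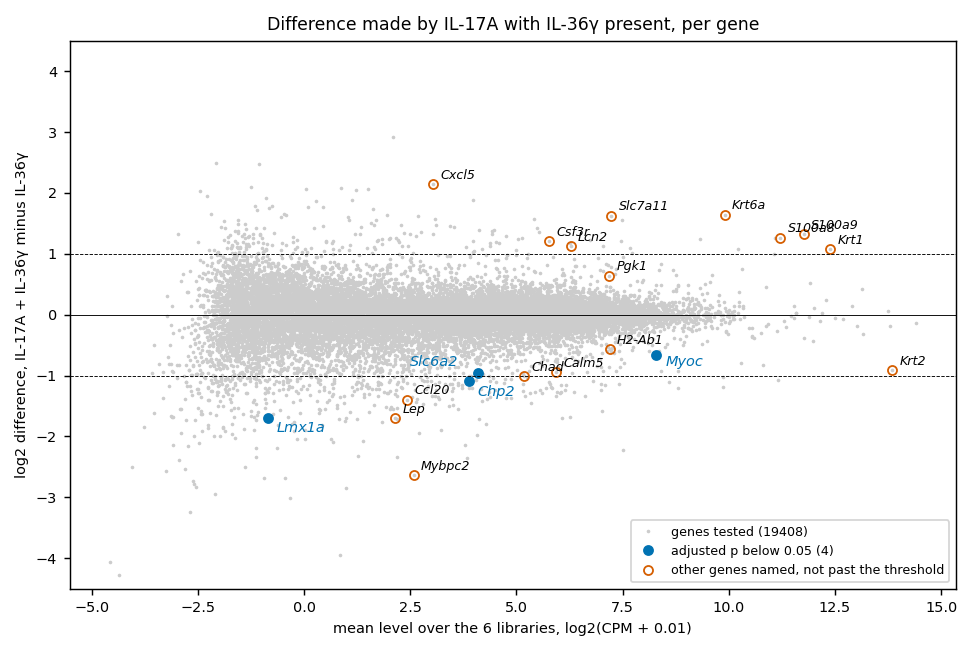
Each point is 1 of 19408 genes, with the mean level over the 6 libraries as log2(CPM + 0.01) on the x axis and the log2 difference between IL-17A + IL-36γ and IL-36γ on the y axis; dashed lines mark an absolute log2 of 1. The 4 filled genes (Lmx1a, Chp2, Slc6a2 and Myoc) passed the adjusted p of 0.05 and lie below 0; open circles are some of the other genes named here, which did not.

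Of the 25 listed epithelial targets of IL-17A, 23 had enough counts to be tested and none was called. At an unadjusted p below 0.05, 8 were higher and 1 was lower, the libraries did not overlap for 12, all higher, and the median log2 difference was 0.64 beside 0.00 over all genes tested. DESeq2 on the 6 libraries called 4 raised, and the blocked fit called 4 raised and 1 lowered.

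S100a8 and S100a9, which encode the subunits of calprotectin, both belong to this list. S100a8 stood at 1339, 1936 and 922 CPM with IL-36γ and at 3768, 3175 and 3135 CPM with both cytokines. S100a9 stood at 1865, 2818 and 1299 CPM and at 6080, 4503 and 4341 CPM. Every IL-17A + IL-36γ library exceeded every IL-36γ library for both genes, but the SE was large, with log2 differences of 1.26 ± 0.70 and 1.32 ± 0.71 and edgeR adjusted p-values of 0.409 and 0.399. DESeq2 on the 6 libraries gave adjusted p-values of 0.00328 and 0.00852 and the blocked fit 0.0236 and 0.026.

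Defb4, a β-defensin gene, was highest in replicate 1 of IL-17A + IL-36γ. Its levels were 4.69, 13.0 and 2.31 CPM in IL-36γ and 42.3, 17.8 and 14.1 CPM in IL-17A + IL-36γ, a log2 difference of 1.88 ± 0.60 (edgeR adjusted p 0.197) that no fit on the 6 libraries called. This difference was 1.25 without that library and 2.82 without replicate 2 of IL-36γ. Slc7a11, the cystine/glutamate exchanger of the core list, ranged from 36.6 to 120 CPM in IL-36γ and from 128 to 339 CPM in IL-17A + IL-36γ, with a log2 difference of 1.63 ± 0.49 (edgeR adjusted p 0.18; blocked adjusted p 0.0266).

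Of 9 tested genes that encode chemokines, growth factors and receptors of neutrophils, 8 had a value above 0, 6 were higher at an unadjusted p below 0.05, and the median log2 difference was 1.44. Cxcl5, a CXCR2 ligand made by epithelia, measured 3.09, 4.78 and 1.14 CPM in IL-36γ and 21.6, 9.51 and 9 CPM in IL-17A + IL-36γ. Its log2 difference of 2.14 ± 0.78 had an edgeR adjusted p of 0.236 and passed the call in DESeq2 on the 6 libraries (0.0379) and in the blocked fit (0.032). Cxcl2, a further CXCR2 ligand, had a mean of 6.22 ± 3.90 CPM (SD, n = 3) against 17 ± 9.86 CPM (log2 1.44 ± 1.03, edgeR adjusted p 0.527).

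Not all IL-17A targets lay higher. Cxcl1, the neutrophil chemokine most often used as an IL-17A readout, measured 16.3, 9.26 and 17.7 CPM against 8.82, 9.66 and 22.3 CPM, a log2 difference of −0.08 ± 0.37. Saa3, an acute-phase serum amyloid gene, measured 141, 168 and 140 CPM against 135, 98.1 and 202 CPM (−0.05 ± 0.31). For both genes the groups overlapped, and the sign of the difference changed with the library left out. Ccl20, the CCR6 ligand that attracts Th17 and dendritic cells, had lower values with both cytokines (6.82, 3.81 and 12.7 against 1.52, 0.878 and 6.32 CPM), overlapping groups and a log2 difference of −1.40 ± 0.62 (edgeR adjusted p 0.315), and only the blocked fit among the fits on 6 libraries called it lowered (adjusted p 0.026).

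Of 15 tested genes of IL-17 cytokines, receptors and signalling, 1 was higher and 3 were lower at an unadjusted p below 0.05, with a median of 0.02 and a range of −0.79 to 0.27. Il17rd, a receptor of the IL-17 receptor family, measured 15.9, 13.9 and 17.7 CPM against 11.2, 9.84 and 11.5 CPM (−0.54 ± 0.12, edgeR adjusted p 0.10). Il17ra measured 38, 43.0 and 39.6 CPM against 54.4, 46.1 and 45.0 CPM (0.27 ± 0.08, edgeR adjusted p 0.18), and Il1rl2, the IL-36 receptor gene, 146, 141 and 145 CPM against 153, 151 and 154 CPM (0.08 ± 0.09). Zc3h12a, which encodes the RNase regnase-1 that degrades IL-17A-stabilized mRNAs, differed by 0.49 ± 0.15 (edgeR adjusted p 0.182), and Nfkbiz, which encodes the IκBζ coactivator of IL-17A and IL-36 responses, by 0.17 ± 0.11. Of 14 NF-κB subunit and inhibitor genes, 1 was higher and 1 lower at an unadjusted p below 0.05, with a median of 0.06.

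The IL-36 and IL-1 family had 18 tested members, 5 higher and 1 lower at an unadjusted p below 0.05, with a median of 0.15 and no call in any fit on the 6 libraries. Il1b ranged from 18.1 to 41.6 CPM with IL-36γ and from 45.3 to 95.3 CPM with both cytokines (log2 1.35 ± 0.79, edgeR adjusted p 0.438). Il1f6 and Il1f9, the genes of IL-36α and IL-36γ themselves, differed by 0.64 ± 0.27 and 0.44 ± 0.17, with overlapping libraries. Il19, an IL-20-family cytokine of keratinocytes, lay between 0.103 and 1.07 CPM in IL-36γ and between 1.21 and 2.21 CPM in IL-17A + IL-36γ (1.77 ± 0.88), and Csf3, which encodes the granulocyte growth factor G-CSF, between 0.0344 and 0.426 and between 0.476 and 0.669 CPM (1.49 ± 0.68).

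Neutrophil marker genes lay higher as a group. Of 25 listed, 21 were tested, 20 had a value above 0, 11 were higher and 1 lower at an unadjusted p below 0.05, and the median log2 difference was 1.19. Their summed level ranged from 2444 to 5012 CPM in IL-36γ and from 7808 to 10294 CPM in IL-17A + IL-36γ, a sum made up mostly of S100a8 and S100a9, which keratinocytes also express. The granule genes Mpo, Elane, Camp and Ngp of immature neutrophils had too few counts to be tested, at most 2 in any of the 6 libraries for Mpo and Elane, 2 to 8 for Camp, and 1 to 10 against 4 to 14 for Ngp. These markers moved with the epithelial targets described above, but the lists share S100a8 and S100a9. Cxcr1, Cxcr2 and Csf3r likewise belong both to the markers and to the list of neutrophil chemokines, growth factors and receptors. The part of the markers in the values of the epithelial targets was not tested.

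Among the markers, Csf3r, the G-CSF receptor gene, measured 27.4, 42.6 and 28.7 CPM against 102, 52.9 and 73.3 CPM (1.21 ± 0.36, edgeR adjusted p 0.18; DESeq2 on the 6 libraries 0.0126). Cxcr2, the chemokine receptor of mature neutrophils, measured 21.8, 25.8 and 17 CPM against 59.7, 29.5 and 37.8 CPM (0.97 ± 0.31, edgeR adjusted p 0.199). Ly6g, the defining surface marker of mouse neutrophils, was near the detection limit at 0.0333 to 0.241 CPM and 0.549 to 0.858 CPM (2.10 ± 0.58, edgeR adjusted p 0.17). All 3 genes had libraries that did not overlap between the groups, and DESeq2 called 7 of the 21 markers raised and the blocked fit 3, Mmp8 (collagenase 2 of neutrophil granules) by DESeq2 alone and Clec4e (the pattern receptor Mincle) by both.

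The stefin A genes, a mouse cluster of cysteine protease inhibitors expressed by neutrophils and keratinocytes, had a value above 0 for all 8 tested members, with a median of 1.36 and no overlap of the libraries for 7 of them. Stfa1 ranged from 61.7 to 133 CPM and from 222 to 356 CPM (1.55 ± 0.78, edgeR adjusted p 0.368; DESeq2 on the 6 libraries 0.00791). BC100530 ranged from 276 to 503 CPM and from 738 to 1168 CPM (1.25 ± 0.94), and Stfa2l1 from 1.3 to 2.10 CPM and from 3.18 to 7.37 CPM (1.55 ± 0.57). These genes are near-identical copies whose reads may have been split between them, so the values of single members are uncertain.

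In the epidermis, keratins of different layers had differences of opposite sign, none of them called in the 12-library edgeR fit. Krt2, the keratin of the upper spinous layer, measured 21317, 18572 and 17896 CPM in IL-36γ against 9743, 9459 and 11415 CPM in IL-17A + IL-36γ (−0.92 ± 0.23, edgeR adjusted p 0.127). Krt1, a keratin of early differentiation, measured 4144, 4248 and 1938 CPM against 7972, 8074 and 5716 CPM (1.07 ± 0.38, edgeR adjusted p 0.22; called raised by DESeq2 on the 6 libraries at 0.0381 and by the blocked fit at 0.0193). Neither gene overlapped between the groups.

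The wound and hyperproliferation keratins had high values and wide spread. Krt6a measured 316, 867 and 210 CPM against 2087, 1209 and 1058 CPM (1.64 ± 0.66, edgeR adjusted p 0.274). Krt6b had means of 1290 ± 711 and 3080 ± 814 CPM (SD, n = 3; 1.26 ± 1.21), Krt16 of 1440 ± 616 and 2858 ± 833 CPM (0.99 ± 0.79) and Krt17 of 337 ± 83.2 and 528 ± 138 CPM (0.65 ± 0.19). None of the 4 overlapped between the groups, and the blocked fit called Krt6a and Krt6b raised. Over the 17 epidermal keratins the median was 0.04, with 4 higher and 3 lower at an unadjusted p below 0.05.

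The envelope precursor genes of the epidermal differentiation complex split by family. The Sprr genes, which encode small proline-rich proteins, had a value above 0 for 12 of 13 members, a median of 1.09 and 2 members at an unadjusted p below 0.05. Sprr2b measured 58.8, 92.7 and 39.5 CPM against 257, 99.7 and 93.0 CPM (1.23 ± 0.53, edgeR adjusted p 0.306), a difference that was 0.60 without replicate 1 of IL-17A + IL-36γ. Sprr1b ranged from 47.2 to 124 and from 148 to 233 CPM (1.13 ± 0.65). All 6 Lce3 genes, a late envelope family known for its association with psoriasis, had a value above 0 with a median of 1.05, but none had an unadjusted p below 0.05 and Lce3b ranged from 5.82 to 37.4 CPM and from 14.0 to 104 CPM.

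Other late-differentiation genes were divided. The 26 barrier and cornified envelope genes had a median of 0.13, with 5 higher and 3 lower at an unadjusted p below 0.05, and the 12 markers of differentiated keratinocytes had a median of −0.05, with 1 higher and 3 lower. All 14 Lce1 genes had a value below 0, with a median of −0.40, but 1 member at an unadjusted p below 0.05, a share no larger than over all genes. That member, Lce1m, measured 118, 55.7 and 135 CPM against 37.7, 13.4 and 44.0 CPM (−1.70 ± 0.45, edgeR adjusted p 0.142; blocked adjusted p 0.00463). Flg2, the filaggrin-2 gene, measured 1427, 888 and 1589 CPM against 594, 291 and 828 CPM (−1.19 ± 0.38, edgeR adjusted p 0.195; blocked adjusted p 0.0174), and Lor, the loricrin gene, had means of 394 ± 59.3 and 261 ± 21.0 CPM (SD, n = 3; −0.60 ± 0.20).

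Of 10 tested kallikreins, the serine proteases of desquamation, 5 were higher at an unadjusted p below 0.05, 9 had a value above 0, and the median was 0.76. Klk13 measured 50.9, 63.1 and 27.1 CPM against 147, 101 and 69.8 CPM (1.17 ± 0.43, edgeR adjusted p 0.24; blocked adjusted p 0.0194), and Klk12 ranged from 0.861 to 2.22 CPM and from 3.04 to 7.02 CPM (1.51 ± 0.40). The Serpinb protease inhibitors were divided, with 5 of 20 higher and 3 lower at an unadjusted p below 0.05. Serpinb3a, a mouse counterpart of the squamous cell carcinoma antigens, measured 95.8, 148 and 72.4 CPM against 314, 229 and 189 CPM (1.21 ± 0.36, edgeR adjusted p 0.177), its low-level relative Serpinb3c differed by 1.76 ± 0.45 and Serpinb13 by −0.69 ± 0.15.

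Genes of glycolysis had small differences of 1 sign. All 17 had a value above 0, 10 were higher at an unadjusted p below 0.05, and the median was 0.36. Pgk1, which encodes phosphoglycerate kinase, measured 121, 124 and 96.8 CPM against 217, 164 and 151 CPM (0.64 ± 0.14, edgeR adjusted p 0.10), and Gapdh had means of 378 ± 46.2 and 522 ± 84.6 CPM (SD, n = 3; 0.46 ± 0.13). All 26 genes of mitosis and S phase likewise had a value above 0, with a median of 0.40, 22 without overlap and 4 at an unadjusted p below 0.05.

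Other higher genes chosen by p were Hmox1, Nrg1 and Cyp7b1. Hmox1, the haem oxygenase 1 gene, measured 103, 97.1 and 99.9 CPM against 190, 160 and 180 CPM (0.82 ± 0.15, edgeR adjusted p 0.0927; DESeq2 on the 6 libraries 9.41e-21). Nrg1, which encodes the ERBB ligand neuregulin 1, measured 3.26, 4.33 and 2.03 CPM against 9.13, 8.27 and 6.92 CPM (1.33 ± 0.29, edgeR adjusted p 0.10). Cyp7b1, an oxysterol hydroxylase gene, measured 17.5, 24.2 and 15.9 CPM against 36.6, 33.2 and 28.1 CPM (0.76 ± 0.15, edgeR adjusted p 0.0965).

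**Figure D4:**
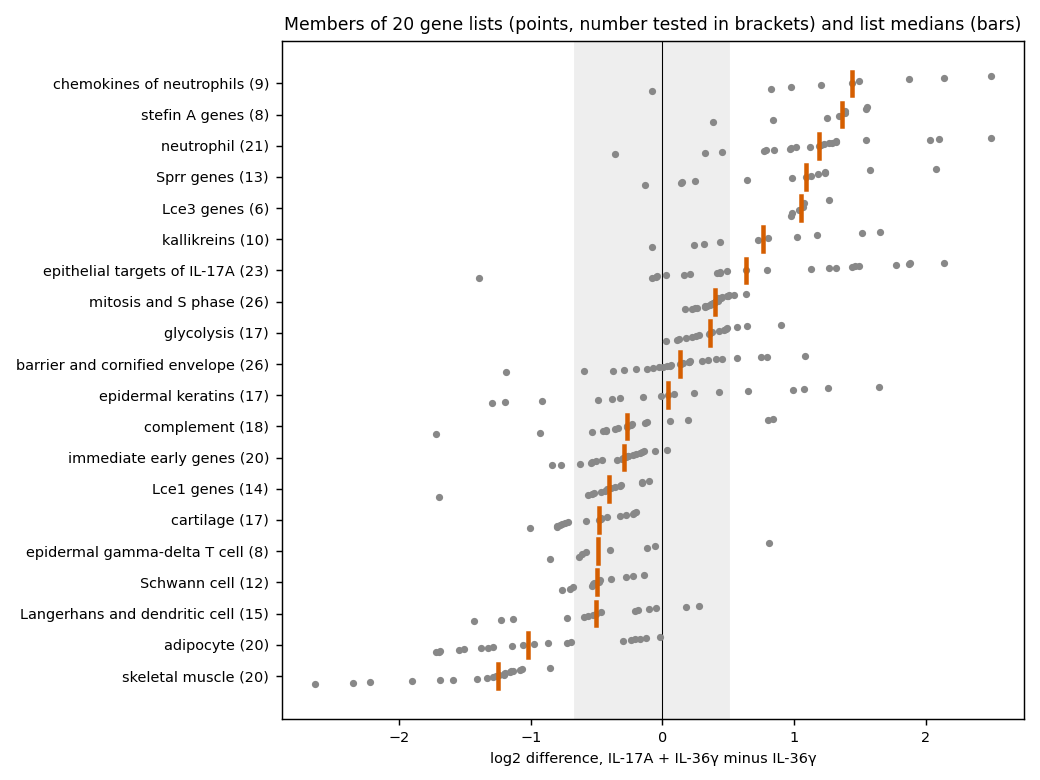
Log2 differences between IL-17A + IL-36γ and IL-36γ of the tested members (points) of 20 gene lists, with the list median (bar); the number tested is in brackets and the grey band spans the 5th to the 95th percentile of all 19408 genes (−0.661 to 0.507). Medians run from 1.44 for the list labelled chemokines of neutrophils to −1.25 for skeletal muscle. The former list also holds Csf3 and the receptor genes Csf3r, Cxcr1 and Cxcr2.

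Lower values included several resident cell types. Of 15 markers of Langerhans and dendritic cells, 7 were lower and none higher at an unadjusted p below 0.05, and the median was −0.51. H2-Ab1, an MHC class II chain gene, measured 192, 162 and 172 CPM against 110, 128 and 117 CPM (−0.57 ± 0.12, edgeR adjusted p 0.10), and H2-Eb1 had means of 168 ± 22.4 and 112 ± 17.4 CPM (SD, n = 3; −0.59 ± 0.16). Cd207, the langerin gene that defines Langerhans cells, measured 5.16, 2.47 and 6.58 CPM against 1.79, 1.43 and 2.78 CPM (−1.23 ± 0.34, edgeR adjusted p 0.153; DESeq2 on the 6 libraries 0.00483; blocked 0.0261), beside a mean of 19.5 CPM in PBS.

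Chemokines that attract cells other than neutrophils were divided, with 2 of 20 higher and 5 lower at an unadjusted p below 0.05. Ccl24, an eotaxin, measured 4.23, 2.95 and 3.41 CPM against 1.09, 1.39 and 2.07 CPM (−1.20 ± 0.24, edgeR adjusted p 0.0964), Ccl27a, a keratinocyte chemokine for skin-homing T cells, 4.06, 3.29 and 5.41 CPM against 1.48, 1.5 and 2.44 CPM (−1.22 ± 0.28, edgeR adjusted p 0.114) and Ccl17, a CCR4 ligand of dendritic cells, 1.33, 1.71 and 3.27 CPM against 0.585, 0.476 and 1.24 CPM (−1.43 ± 0.49, edgeR adjusted p 0.214). All 3 were called lowered by DESeq2 on the 6 libraries and by the blocked fit. Cxcl10, the interferon-induced CXCR3 ligand, was called raised by both (1.33 ± 0.62 and an adjusted p of 0.338 in the 12-library edgeR fit), while the 22 interferon-stimulated genes had a median of 0.43 with 1 at an unadjusted p below 0.05.

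Of 8 tested genes of epidermal γδ T cells, 4 were lower and 1 higher at an unadjusted p below 0.05. Tcrg-C1, a constant region gene of the γ chain, measured 3.36, 4.23 and 4.13 CPM against 2.11, 2.34 and 2.04 CPM (−0.85 ± 0.16, edgeR adjusted p 0.0927). The markers of αβ T and NK cells (18 tested) had a median of 0.22 and those of monocytes and macrophages (20 tested) a median of −0.04.

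Some structural cell types of the ear also lay lower. Others did not, with medians of 0.07 for sebaceous gland, 0.04 for melanocyte and 0.03 for proliferating and basal keratinocyte genes. Of 17 cartilage genes, 13 were lower at an unadjusted p below 0.05 and 14 without overlap, with a median of −0.48. Chad, which encodes chondroadherin, measured 55.8, 30.9 and 58.3 CPM against 22.9, 22.8 and 26.4 CPM (−1.01 ± 0.20, edgeR adjusted p 0.0964; DESeq2 on the 6 libraries 0.0145), and Col9a3, a type IX collagen chain gene, had means of 26.5 ± 4.27 and 15.4 ± 2.57 CPM (SD, n = 3; −0.78 ± 0.20). Of 12 Schwann cell genes, 8 were lower at an unadjusted p below 0.05, with a median of −0.50. Pmp22, a myelin protein gene of peripheral nerve, measured 143, 119 and 143 CPM against 83.1, 92 and 117 CPM (−0.47 ± 0.12, edgeR adjusted p 0.136).

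Of 20 adipocyte genes, 14 were lower at an unadjusted p below 0.05, with a median of −1.02, but only 2 had libraries that did not overlap. The blocked fit on the 6 libraries called 8 of them lowered, and 8 of the 20 skeletal muscle genes, and DESeq2 on the 6 libraries called 1 of each list. Lep, the leptin gene, measured 8.92, 2.86 and 8.47 CPM against 2.46, 0.951 and 2.78 CPM (−1.70 ± 0.46, edgeR adjusted p 0.148; blocked adjusted p 0.0153). Cfd, which encodes adipsin, differed by −1.72 ± 0.60 and Car3, the carbonic anhydrase 3 gene, by −1.14 ± 0.33, and for all 3 genes replicate 2 was the lowest library of both groups. The 20 skeletal muscle genes all had a value below 0, with a median of −1.25 and 6 at an unadjusted p below 0.05, and their summed level ranged from 4083 to 6370 CPM in IL-36γ, from 1092 to 4816 CPM in IL-17A + IL-36γ and from 1669 to 11922 CPM in PBS.

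Within the PBS group the muscle genes spanned a wider range than in either group compared. Actn3, the fast-fibre actinin gene, measured 19.7, 9.47 and 15 CPM against 2.69, 1.87 and 7.12 CPM (−1.90 ± 0.66, edgeR adjusted p 0.217), and Mybpc2, a fast myosin-binding protein gene, 15.3, 6.06 and 9.74 CPM against 0.039, 0.366 and 4.41 CPM (−2.64 ± 1.18). The summed level of the adipocyte genes was 732 to 1148 CPM against 614 to 762 CPM, that of the cartilage genes 413 to 505 CPM against 279 to 369 CPM and that of the Schwann cell genes 353 to 435 CPM against 249 to 329 CPM. The part of a difference in the amount of these tissues in any other result was not tested.

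The 78 cytosolic ribosomal protein genes had a median of −0.04 and none at an unadjusted p below 0.05, and the 76 genes of oxidative phosphorylation had a median of 0.07 with 4 higher. Fibroblast genes lay lower by counts similar to those of the Langerhans and dendritic cell list, with 6 of 14 lower and 1 higher at an unadjusted p below 0.05, 7 lower without overlap and a median of −0.22; the blocked fit on the 6 libraries called 1 lowered.

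Further genes with a small p and lower values were Fcgbp, Serpina3b, Dkk3, Igf2 and Hlf. Fcgbp, which encodes an IgG Fc-binding mucin-like protein, measured 1541, 1438 and 1740 CPM against 873, 781 and 1073 CPM (−0.79 ± 0.12, edgeR adjusted p 0.0856). Serpina3b, a protease inhibitor gene, measured 61.7, 39.2 and 69.9 CPM against 25.2, 19.5 and 25.2 CPM (−1.29 ± 0.20, edgeR adjusted p 0.0856; called by DESeq2 on the 6 libraries and by the blocked fit). The secreted Wnt modulator gene Dkk3 differed by −0.44 ± 0.07, the growth factor gene Igf2 by −0.42 ± 0.07 and Hlf, a transcription factor gene of the circadian output pathway, by −0.57 ± 0.10.

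The addition of IL-17A can be set beside the effect of IL-17A in the absence of IL-36γ (IL-17A against PBS), which uses none of the same libraries. The IL-17A libraries stood apart in their share of mitochondrial counts, at 4.3 to 5.66% against 3.11 to 3.73% in the other 9 libraries, and the summed level of red blood cell genes was 156 to 366 CPM in IL-17A, 83.7 to 128 CPM in PBS, 102 to 170 CPM in IL-36γ and 81.6 to 141 CPM in IL-17A + IL-36γ. The part of these differences in the interaction was not tested. The interaction, the difference between these 2 log2 changes, had an adjusted p below 0.05 for 107 of 19408 genes (0.551%). Of these, 82 were below 0, meaning a smaller or more negative log2 change when IL-36γ was present, and 25 above 0. A smaller log2 change can still be a larger change in CPM where IL-36γ alone raised the gene. For 77 of the 107 the value was above 0 against PBS and below 0 against IL-36γ, for 25 it was the opposite, and for 5 both had the same sign. These are signs of values, many of which did not pass the test in the comparison with IL-36γ. Leaving out 1 library moved the count from 1 (without replicate 1 of IL-36γ) to 1534 (without replicate 1 of PBS). With DESeq2 size factors 38 genes passed and with library size alone 3, where the median of all interaction values was 0.107 in place of −0.07.

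Among IL-17A targets, Saa3 and Lcn2 passed the interaction. Saa3 had a mean of 0.71 CPM in PBS, 20.6 CPM in IL-17A, 150 CPM in IL-36γ and 145 CPM in IL-17A + IL-36γ, so the log2 change was 4.84 (adjusted p 0.000919) without IL-36γ and −0.05 with it, and the interaction was −4.88 ± 0.56 (edgeR adjusted p 0.0122). Lcn2 had means of 2.51, 17, 48.5 and 106 CPM in the same order, with log2 changes of 2.75 and 1.13 and an interaction of −1.62 ± 0.30 (edgeR adjusted p 0.0475). In CPM its mean gained more with IL-36γ present (48.5 to 106) than without it (2.51 to 17), so its negative interaction holds on the log2 scale only. For S100a8 the changes were 4.43 and 1.26 and for Cxcl5 3.39 and 2.14, with interaction adjusted p-values of 0.107 and 0.57, so a difference between them was not shown. Slc7a11 and Krt6a had interactions of 0.59 and 0.00.

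The interaction was below 0 and passed for some immediate early and complement genes. It was not particular to these lists, as it also passed for 4 of 20 monocyte and macrophage genes and 3 of 17 circadian clock genes. The complement and the macrophage lists share C1q genes. Of 20 immediate early genes, 19 had a value below 0 with IL-36γ present (median −0.29), whereas the median of IL-17A against PBS was 0.86, 5 were lower at an unadjusted p below 0.05, none was called by the 12-library edgeR fit, by DESeq2 on the 6 libraries or by the blocked fit, and 6 passed the interaction. Fos, an AP-1 subunit gene, measured 164, 142 and 151 CPM in IL-36γ against 31.6, 92.9 and 131 CPM in IL-17A + IL-36γ (−0.84 ± 0.50). Its change in IL-17A against PBS was 2.83. Dusp1, a MAP kinase phosphatase gene, measured 99.0, 89.5 and 92.9 CPM against 45.9, 63.5 and 84.4 CPM (−0.54 ± 0.21). Jund, which did not pass the interaction, differed by −0.51 ± 0.14.

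Of 18 complement genes, 9 were lower and 2 higher at an unadjusted p below 0.05, with a median of −0.27 with IL-36γ present and 0.69 for IL-17A against PBS, and 3 passed the interaction. C3, the central complement component, measured 601, 464 and 685 CPM against 243, 229 and 448 CPM (−0.93 ± 0.39, edgeR adjusted p 0.295; blocked adjusted p 0.0194). Cfb, the alternative pathway factor B gene, had overlapping libraries at 12.5, 12.0 and 11.5 CPM against 9.36, 10.4 and 13.4 CPM (−0.12 ± 0.13). Its change in IL-17A against PBS was 1.59, and the interaction had an edgeR adjusted p of 0.0122.

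**Figure D5:**
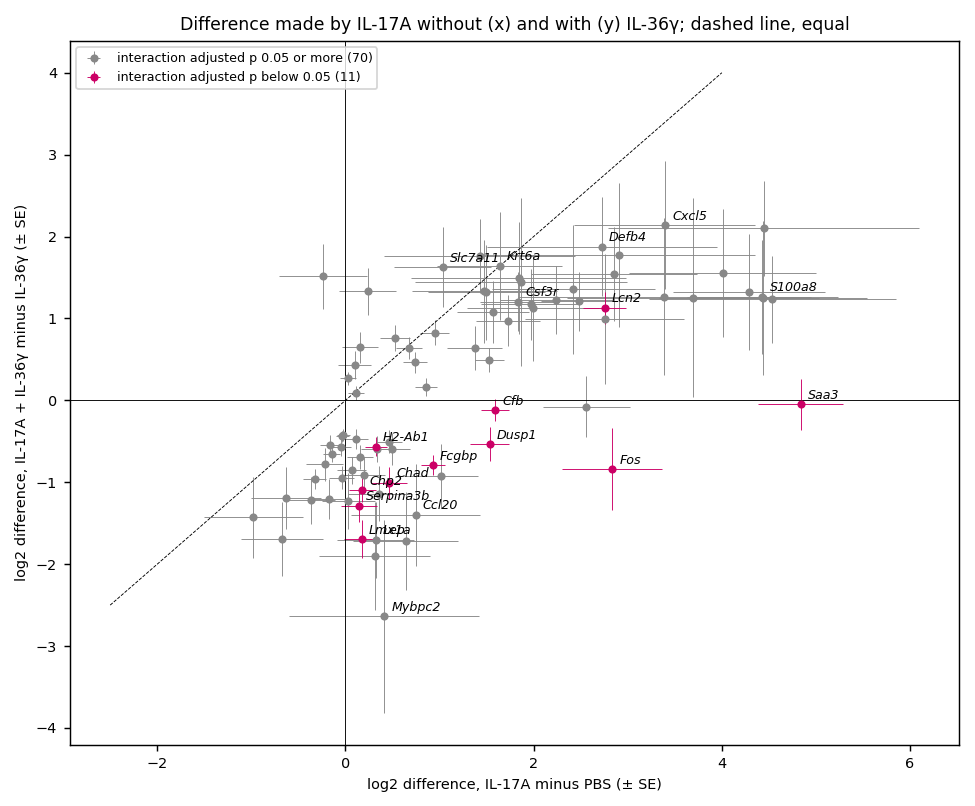
For the 81 genes named here, the log2 difference between IL-17A and PBS (x axis) and between IL-17A + IL-36γ and IL-36γ (y axis), each with its SE as bars; the dashed line marks equal differences. The 11 genes with an interaction adjusted p below 0.05 all lie below the line, and Saa3 (4.84 on the x axis, −0.05 on the y axis) lies farthest from it.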

How the data were processed

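Ear RNA was depleted of ribosomal RNA, made into TruSeq stranded libraries and sequenced on an Illumina NextSeq instrument with 76-base paired reads. The authors aligned the reads with STAR 2.5.2b to mm10 and deposited unnormalized counts per Ensembl gene from featureCounts (Subread 1.5.1); the strand setting and annotation release are not given in the sources used here. Other deposited tables held the authors' own fold changes and p-values and were not used. Groups came from the labels, 3 libraries each, and replicates of a group differed beyond sampling noise (chi-square per gene 21.5 to 26.6), so none was counted as a copy.

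Of 50684 genes, 19408 passed filterByExpr (minimum count 10). Counts were scaled by TMM and fitted in edgeR 4.0.16 (R 4.3.3) by the quasi-likelihood method, 4 groups in 1 model, with Benjamini-Hochberg adjustment. DESeq2 1.42.0 (likelihood ratio test, local fit) and the other alternatives are given in the closing section. The replicate numbers were checked for pairing: the deviations of same-numbered IL-36γ and IL-17A + IL-36γ libraries from their group means correlated at 0.13, 0.19 and 0.24 over genes, and those of differently numbered libraries at −0.26 to 0.084, which meets the rule used for pairing. Deviations cancel within a group, so these same-numbered and differently numbered values are not independent. Same-numbered libraries of other group pairs correlated at −0.2 to 0.35 (PBS and IL-17A + IL-36γ), −0.014 to 0.31 (PBS and IL-36γ) and −0.18 to 0.12 (IL-17A and IL-36γ). The values were −0.063 to 0.08 for PBS and IL-17A and 0.0056 to 0.13 for IL-17A and IL-36γ with IL-17A. The number thus did not mark the same pairing in every group. The 12-library fit had no block. For some genes the adjusted p of the blocked fit on the 6 libraries is printed beside it, for others only the call. Values with the block on 12 libraries, a fit that called no gene, are given for Chp2 and Lmx1a alone. No source says what the number marks. The scripts were tested on simulated counts.

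The comparison, the 49 gene lists and the rule for named genes were chosen with earlier results of these data known. Named were, in each direction, the 15 genes with the smallest p (called genes first, by fold) without overlap of the libraries and with at least 1 CPM in the higher group, a core list, and up to 4 members with the smallest p per list; the text gives a part of these. Lmx1a, Mmp8, Krt6a, C3, Clec4e, Mybpc2, Sprr1b, Fos, BC100530 and Cfb were added after their values were seen. Sequences are from RefSeq (GRCm38.p6). Nothing in the sources says that replicates came from separate cages or days, so p-values measure the spread between these samples. Counting error is small at this depth except for genes below 1 CPM, Lmx1a among them. A result on an item withheld for evaluation is not reported here.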

Additional observations from a re-analysis of the deposited data

Results flagged for a closer look

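Among the 81 genes named, 11 had an interaction past an adjusted p of 0.05 (edgeR quasi-likelihood test on 12 libraries), that is, the log2 change by IL-17A differed with and without IL-36γ. Over all genes tested the share was 0.551%. Many of the 81 were named for a small p in IL-17A + IL-36γ against IL-36γ. That difference is part of the interaction, so the count and its signs partly restate the choice of genes. The interaction was −4.88 on the log2 scale for Saa3, −3.67 for Fos, −2.07 for Dusp1, −1.86 for Lmx1a, −1.72 for Fcgbp, −1.71 for Cfb, −1.62 for Lcn2, −1.47 for Chad, −1.43 for Serpina3b, −1.27 for Chp2 and −0.89 for H2-Ab1. The adjusted p-values ran from 0.00866 for Fcgbp to 0.0498 for Fos. For Lcn2 both changes were above 0, for the other 10 the value was above 0 against PBS and below 0 against IL-36γ. Against IL-36γ only Chp2 and Lmx1a of these passed an edgeR adjusted p of 0.05. Their values against PBS did not (0.18 ± 0.14 and 0.17 ± 0.19, edgeR adjusted p 0.421 and 0.62). In the 12-library edgeR fit a reversal of the IL-17A effect was thus not shown for any of these genes. Fcgbp differed by 0.93 in IL-17A against PBS (adjusted p 0.0066 in that fit). Its −0.79 against IL-36γ had adjusted p-values of 0.0856 there, 3.05e-07 in DESeq2 on the 6 libraries and 0.0174 in the blocked fit. For Saa3, Cfb and Dusp1, DESeq2 on the 6 libraries and the blocked fit gave no adjusted p below 0.05. The cause of these differences was not tested, and the number of genes past this threshold depended strongly on single libraries.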

How the results depend on the processing

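No gene raised, 2 lowered and 4 past the adjusted p at any fold were obtained by edgeR on 12 libraries, and 107 in the interaction. In the order raised, lowered, any fold and interaction, DESeq2 size factors gave 0, 2, 4 and 38, library size alone 0, 0, 0 and 3, no filter 18, 64, 281 and 462, and at least 10 counts in every library 0, 0, 0 and 90. DESeq2 on 12 libraries gave 23, 71, 724 and 1797. On the 6 libraries edgeR gave 0, 0 and 0 and DESeq2 50, 91 and 1235. The replicate block, which pairs libraries by number, gave 0, 0, 0 and 883 on 12 libraries and, in a fit added after seeing the data, 44, 150 and 747 on the 6. An absolute log2 above 0.5 gave 0 and 4.

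Leaving out 1 library at a time gave 0 to 13 raised, 0 to 49 lowered, 0 to 209 at any fold and 1 to 1534 in the interaction. The lowest interaction count was without replicate 1 of IL-36γ and the highest without replicate 1 of PBS; the highest counts of the main comparison were without replicate 2 of IL-36γ, and omission of 9 of the 12 libraries left fewer than 2 lowered genes. Where a setting gave 0 calls, 1110 to 2010 genes were still lower at an unadjusted p below 0.05. Only Cxcl1 (−0.63 to 0.16) and Saa3 (−0.35 to 0.18) changed sign among the 81 genes named, both on leaving out a library. Chp2 and Lmx1a lost their calls with library size alone, with the block on 12 libraries and with edgeR on the 6 libraries, with adjusted p-values from 0.0649 to 0.124. With at least 10 counts in every library Chp2 also lost its call (edgeR adjusted p 0.0534), and Lmx1a was not tested. DESeq2 on the 6 libraries gave Lmx1a no adjusted p. The cause was not tested. Scaling moved the median of all genes in the main comparison little (0.00296 with TMM, 0.0135 and 0.00942 otherwise), but that of IL-17A against PBS from 0.0425 to −0.128 with library size alone. Depth limits statements on genes below 1 CPM, such as Ly6g, Csf3 and Lmx1a.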
